A study of Mus musculus with 6 samples.

Results

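p53 and 7 genes of its response, *Mdm2*, *Mdm4*, *Ccng1*, *Trp53inp1*, *Phlda3*, *Zmat3* and *Sesn1*, were followed in the villus epithelium of the mouse duodenum. The 8 genes were chosen by name, as p53 itself, its main inhibitors and widely described p53 targets, and all 8 were found among the 20409 features of the count table. Bulk RNA-seq was available from 3 double mutant and 3 wild-type mice, with 1 library per mouse. The double mutant mice carried *Smad4* fl/fl, *Ctnnb* exon3fl/wt and Villin-CreERT2, so that tamoxifen removes Smad4 and makes β-catenin stable, in cells where the Villin promoter is active, which is the whole intestinal epithelium. They received 4 tamoxifen injections of 0.05 g/kg, and the villi were compared 7 days after the first of them. The wild-type littermates were not injected, so tamoxifen itself and the mutations cannot be told apart. All mice were on a background enriched for C57BL6, with 1 male and 2 females per group and groups matched for age, the age itself not being given in the sources used here.

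p53 (*Trp53*) is a transcription factor that is kept scarce by the ubiquitin ligase Mdm2 and held inactive by its relative Mdm4. Stress such as DNA damage frees p53, which then activates genes for cell cycle arrest, apoptosis, repair and metabolism, and also *Mdm2*, which closes a feedback loop. p53 is controlled largely at the level of its protein, which was not measured here, and all values below are of RNA. In the intestine, p53 is known for its part in the response of crypt cells to irradiation and as a tumor suppressor lost late in colorectal cancer.

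The libraries held 19678507 to 26337318 counts, and levels are given as CPM, counts per 1000000 counts after edgeR's TMM scaling. A count of 3, taken as the lowest level that this depth can show, lay between 0.125 and 0.163 CPM, which covers counting error only. An epithelial tissue was borne out by 7 pan-epithelial markers, which summed to 11199 to 11547 CPM in wild-type villi. In double mutant villi they summed to 9254 to 10271 CPM, with *Krt19* higher and *Vil1* and *Cldn7* lower by test. *Vil1* had mean levels of 4047 against 2244 CPM. These markers do not tell villus from crypt. Paneth cell markers summed to 7.91 CPM in wild-type mouse 1 and to 909 and 1500 CPM in wild-type mice 2 and 3. In double mutant mice they summed to 153 to 248 CPM (0 of 6 called). Summed levels of 12 markers of proliferating cells were 37.0 to 87.3 CPM in wild-type and 171 to 210 CPM in double mutant mice, and 9 of the 12 were higher by test. Those of 8 enterocyte markers were 43043 to 50094 CPM against 24444 to 25548 CPM, with 6 of the 8 lower. Stem cell markers summed to 27.6 to 105 CPM against 135 to 188 CPM (2 of 5 higher), tuft cell markers to 83.3 to 113 CPM against 11.9 to 13.6 CPM (5 of 5 lower) and enteroendocrine markers to 224 to 311 CPM against 96.1 to 105 CPM (5 of 6 lower). T cell markers summed to 86.0 to 172 CPM against 73.1 to 114 CPM (2 of 7 lower), and the 7 stromal markers in the table stayed at 0.00 to 0.253 CPM against 0.332 to 5.87 CPM. Without wild-type mouse 1, described next, the wild-type sums were 82.5 to 87.3 CPM for proliferating cells, 99.3 to 105 CPM for stem cells and 157 to 172 CPM for T cells. The part of these shifts in the results below was not tested. Wild-type mouse 1 had the deepest library and stood apart on the second principal component, at 55.0 against -35.2 and -34.5 in wild-type mice 2 and 3. Its goblet markers summed to 125 CPM, where the highest wild-type mouse had 11601 CPM. Results are therefore also given without it where it matters.

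p53 binds DNA at a pair of 10-base elements, each with 3 purines, a core of C, a pair of A or T bases and G, and 3 pyrimidines. The mm9 sequence within 5000 bases on either side of each gene start was searched for the joined 20-base consensus, on both strands, with at most 2 mismatches and none in the cores. Pairs of elements set apart by other bases were not searched for, so a gene without a match may still hold such a pair. Of the 8 genes, 2 held a match, against 6.88% of the 12058 tested protein-coding genes. With 2 genes, this share sets nothing apart. The matches in *Ccng1* and *Zmat3* are shown because no other of the 8 genes held one. The 2 matches in introns lie at chr11:40568438-40568457 (*Ccng1*) and chr3:32263253-32263272 (*Zmat3*), the third at chr3:32269073-32269092, upstream of *Zmat3*. All 3 are on the minus strand, are printed 5′ to 3′ in the direction of the gene, and have the cores in capitals.
Ccng1, intron: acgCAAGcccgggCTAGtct
Zmat3, intron: aaaCAAGcccaggCATGtct
Zmat3, upstream: gagCAAGtctgggCTTGtta
The intronic match of *Zmat3* had 0 mismatches and the other 2 had 1 mismatch each. For the p53 target genes beyond these 8, which are described further below, 15 of 50 held a match. The match of *Cdkn1a* (chr17:29227873-29227892, plus strand) lies just upstream of the annotated gene start, that of *Psrc1* (chr3:108187574-108187593, plus strand) lies in an intron, and that of *Aldh4a1* (chr4:139178380-139178399, plus strand) lies upstream. They are shown because these genes had the largest called fall (*Cdkn1a*) and rise (*Psrc1*) among the arrest targets and the largest called fall among the metabolic targets (*Aldh4a1*).
Cdkn1a: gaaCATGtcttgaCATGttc
Psrc1: gggCATGttgaggCATGccc
Aldh4a1: aagCAAGcccaggCTTGgcc
The shares with a match were 7.15% of the genes higher in double mutant villi, 7.05% of the lower ones and 6.73% of those not called. In the RefSeq promoter windows (GRCm38.p6, 250 bases before to 50 after a gene start), which held 6 of the 8 genes, a single 10-base element without a mismatch was found once each for *Trp53*, *Mdm2*, *Ccng1* and 1 of 2 *Sesn1* starts, and in 8.36% of all windows. No match was found for *Phlda3* or for either *Mdm4* start in those windows. A match in these letters is a description and was not tested for binding.

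*Trp53* RNA was higher in the double mutant villi, while *Mdm2*, the gene of its main inhibitor and itself a p53 target, was lower. *Trp53* (ENSMUSG00000059552; mm9 chromosome 11, 69393861 to 69405375, plus strand) had 16.7, 17.0 and 20.0 CPM in wild-type mice 1 to 3 and 36.0, 33.9 and 29.4 CPM in double mutant mice 1 to 3. The groups did not overlap. The rise was 1.85-fold, which is 0.89 ± 0.137 on the log2 scale (fold change ± its standard error, as in all log2 values from edgeR given with ±), with an adjusted p of 0.00175 in edgeR's quasi-likelihood test with Benjamini-Hochberg adjustment over 13346 genes. These are bulk samples, so more RNA per cell and more cells with *Trp53* RNA cannot be told apart. Leaving out 1 mouse at a time moved the log2 value between 0.83 and 0.97. Pseudogenes named after *Trp53* and *Mdm4* are annotated elsewhere in mm9 but are not in the count table, and none of the 8 genes overlaps another annotated gene.

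*Mdm2* (ENSMUSG00000020184; chromosome 10, 117125944 to 117147814, minus strand) had 91.2, 83.1 and 79.3 CPM in the wild-type mice and 42.1, 41.5 and 47.0 CPM in the double mutant mice. Every double mutant mouse lay far below every wild-type mouse, and the spread within each group was small. The fall was 1.94-fold (edgeR log2 fold change -0.96 ± 0.112, adjusted p 0.000530), the smallest adjusted p of the 7 genes tested. *Mdm4* (ENSMUSG00000054387; chromosome 1, 134886422 to 134921943, minus strand) binds and silences p53 without degrading it on its own. Its levels were 36.7, 37.2 and 33.2 CPM in wild-type against 31.8, 25.1 and 34.7 CPM in double mutant mice. The groups overlapped through double mutant mouse 3, and the log2 fold change in edgeR of -0.22 ± 0.143 (adjusted p 0.253) did not pass the threshold.

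**Figure D1:**
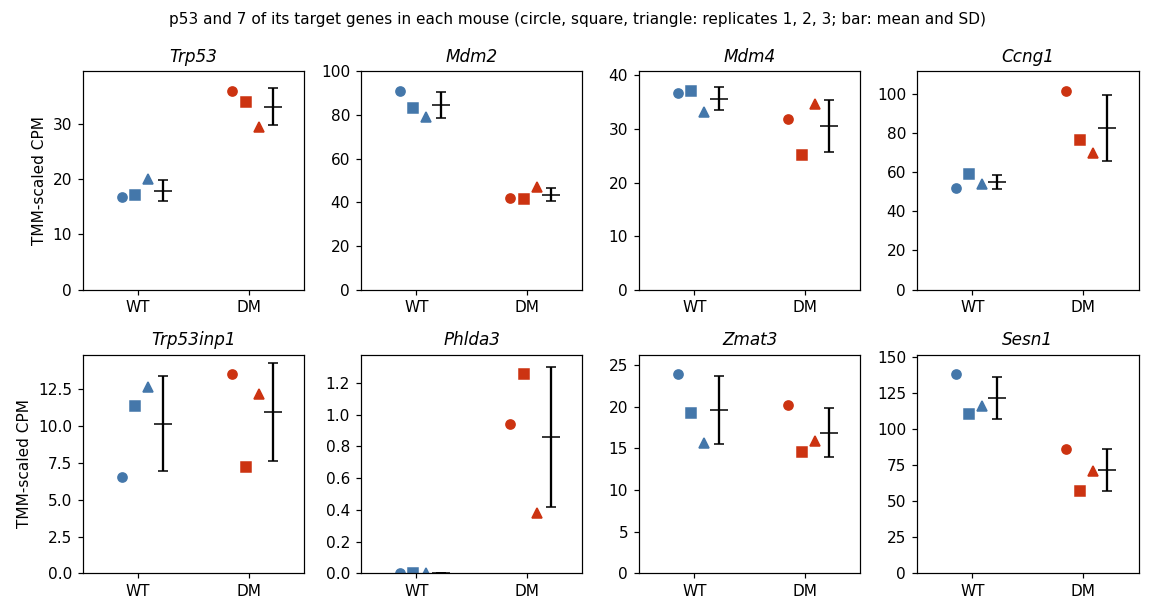
Level of each of the 8 genes in each mouse, in TMM-scaled CPM on linear axes that start at 0, for wild-type (WT) and double mutant (DM) villi. Points are mice and bars are the mean and SD of 3 mice. *Trp53* and *Ccng1* sit higher in every double mutant mouse, *Mdm2* and *Sesn1* lower, *Mdm4*, *Trp53inp1* and *Zmat3* overlap, and *Phlda3* has no counts in wild-type mice.

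The established targets did not move together. *Ccng1* (ENSMUSG00000020326; chromosome 11, 40562054 to 40568813, minus strand) encodes cyclin G1, which recruits a phosphatase to Mdm2. It had 51.8, 59.2 and 54.1 CPM in wild-type against 102, 76.7 and 69.8 CPM in double mutant mice. All double mutant mice were higher, double mutant mouse 1 the most. The rise was 1.5-fold (edgeR log2 fold change 0.59 ± 0.153, adjusted p 0.0171). Without wild-type mouse 3 the adjusted p in edgeR was 0.0576 and the call was lost. The log2 value was 0.42 without double mutant mouse 1 and at most 0.70 without any other.

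*Sesn1* (ENSMUSG00000038332; chromosome 10, 41530380 to 41628230, plus strand) encodes sestrin 1, a stress protein that restrains mTORC1. It had 138, 110 and 116 CPM in wild-type against 86.4, 57.2 and 71.0 CPM in double mutant mice. The groups did not overlap, and the level fell 1.70-fold (edgeR log2 fold change -0.77 ± 0.165, adjusted p 0.00754). *Sesn1* thus changed in the direction of *Mdm2* and against that of *Ccng1*.

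*Trp53inp1* (ENSMUSG00000028211; chromosome 4, 11083578 to 11101526) encodes a p53-induced nuclear protein that favours apoptosis and autophagy. It had 6.54, 11.4 and 12.6 CPM in wild-type against 13.5, 7.24 and 12.2 CPM in double mutant mice. Wild-type mouse 1 and double mutant mouse 2 were the low ones, and the difference in edgeR was 0.11 ± 0.306 on the log2 scale (adjusted p 0.802). Without wild-type mouse 1 it was -0.13. *Zmat3* (ENSMUSG00000027663; chromosome 3, 32233718 to 32264600) encodes a zinc finger RNA-binding protein. Its levels were 23.9, 19.2 and 15.7 CPM against 20.2, 14.6 and 15.9 CPM, with a log2 fold change in edgeR of -0.21 ± 0.195 (adjusted p 0.423). The groups overlapped broadly for both genes, and a difference beyond the spread between mice was not detectable with 3 mice per group.

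*Phlda3* (ENSMUSG00000041801; chromosome 1, 137662696 to 137665713) encodes a pleckstrin homology protein that competes with Akt for membrane lipids. It had 0 counts in each wild-type mouse and 20, 27 and 8 counts in double mutant mice 1 to 3. These counts correspond to 0.939, 1.25 and 0.380 CPM, all above the 3-count level of their libraries. Taken against 3 counts in each wild-type library, *Phlda3* was at least 5.85-fold higher. It was too low for the filter on low counts and was not among the 13346 genes tested. In fits where it did pass, it passed through the double mutant counts alone, so no p is given for it. It remained a scarce transcript in every double mutant mouse.

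**Figure D2:**
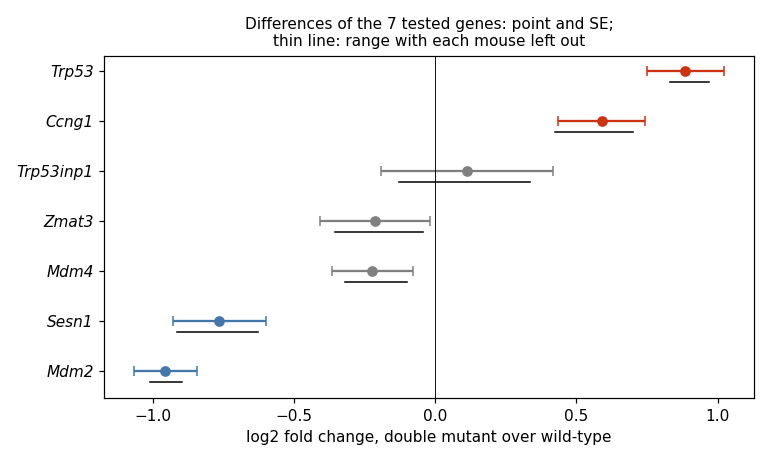
Log2 fold change of the 7 tested genes, double mutant over wild-type, as points with the standard error of edgeR's fit; thin lines give the range when each mouse is left out. Red marks genes called higher, blue genes called lower and grey genes not called at an adjusted p of 0.05. The lines of *Trp53*, *Ccng1*, *Sesn1* and *Mdm2* stay on one side of 0, as do those of *Mdm4* and *Zmat3*, which were not called. That of *Trp53inp1* crosses 0.

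Of the 7 tested genes, 4 were called (57.1%), 2 higher and 2 lower, where 36.8% of all tested genes were called, 19.7% higher and 17.0% lower. The groups did not overlap for 4 of the 7 (57.1%), against 52.4% of all tested genes. In 2 of them the double mutant mice were all above, as in 28.1% of tested genes, and in 2 all below, as in 24.2%. Calls were common across the transcriptome, and with 7 genes these shares set nothing apart. The median log2 fold change was -0.21 against 0.02 over all tested genes. Scaling by library size alone raised the median over all genes by 0.19 on the log2 scale and the share of higher genes among those called from 53.7% to 72.4%. None of the 7 genes changed direction or side of the threshold under it, the log2 fold change of *Trp53* being 1.08 and that of *Mdm2* -0.76.

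The ratio of a gene to *Trp53* within a library does not depend on the scaling between libraries. For each *Trp53* count, the wild-type mice had 5.47, 4.88 and 3.96 *Mdm2* counts and the double mutant mice 1.17, 1.22 and 1.60. The 2 groups were far apart, with means of 4.77 ± 0.761 and 1.33 ± 0.233 (SD, n = 3 mice), and the log2 ratio fell by 1.84. For *Sesn1* the ratio was 6.86 ± 1.28 in wild-type and 2.17 ± 0.414 in double mutant mice, a log2 difference of -1.66. *Mdm4* went from 2.01 ± 0.307 to 0.936 ± 0.224 counts per *Trp53* count (log2 difference -1.12), and *Zmat3* from 1.11 ± 0.325 to 0.511 ± 0.0698 (log2 difference -1.09). These 4 ratios did not overlap between the groups, and neither did those of 65.0% of all other tested genes, with the double mutant mice below. Since *Trp53* itself rose by 0.89 on the log2 scale, a gene that did not change would fall by as much against it, and the median over all other tested genes was -0.85. The ratios of *Mdm4* and *Zmat3*, whose own levels did not pass the test, lay closer to that value than those of *Mdm2* and *Sesn1*. The two-sided exact permutation p was 0.1 for each of the 4, the smallest that 3 mice against 3 allow, and 0.14 after adjustment over 7 ratios, the seventh being that of *Phlda3*, which its 0 counts in wild-type mice fix. The ratios of *Ccng1* (3.10 ± 0.387 against 2.49 ± 0.299) and *Trp53inp1* (0.564 ± 0.150 against 0.335 ± 0.107) overlapped (exact permutation p = 0.2, adjusted 0.2). *Ccng1* was thus the tested gene whose ratio to *Trp53* moved least, by -0.31 on the log2 scale.

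**Figure D3:**
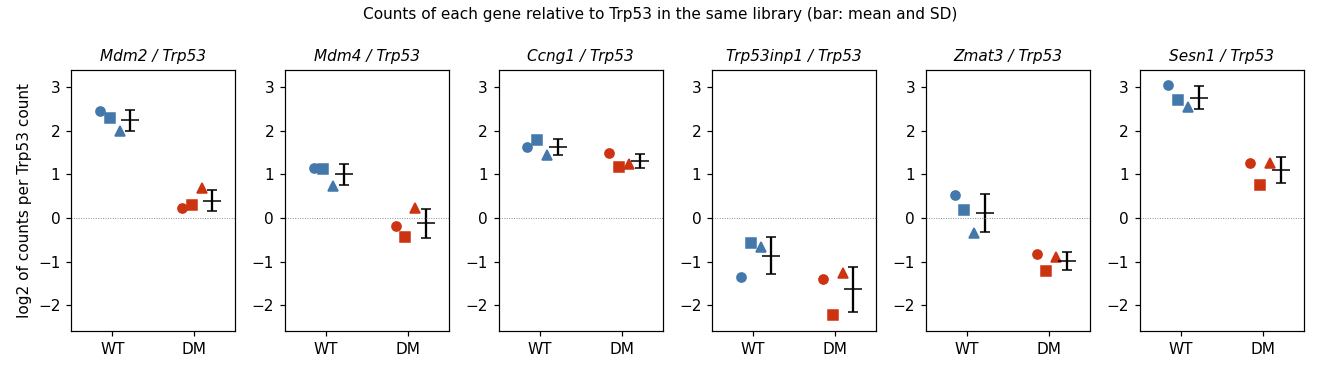
Log2 of the counts of 6 genes per *Trp53* count in the same library, for wild-type (WT) and double mutant (DM) mice; points are mice and bars are the mean and SD of 3 mice. *Mdm2*, *Mdm4*, *Zmat3* and *Sesn1* are lower relative to *Trp53* in every double mutant mouse, and *Ccng1* and *Trp53inp1* overlap. *Phlda3* is left out because it has no counts in wild-type mice.

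Levels were compared between genes per kilobase of annotated exon, with all annotated exons of a gene joined. The transcripts present can be shorter than this length, so the order between genes depends on it. In wild-type villi *Sesn1* was highest, at 36.6 ± 4.37 CPM per kb (SD, n = 3 mice), followed by *Mdm2* (16.7 ± 1.20) and *Ccng1* (15.7 ± 1.07), which did not differ beyond their spread. *Mdm4* had 10.2 ± 0.612, *Trp53* 4.43 ± 0.455, *Zmat3* 2.42 ± 0.508 and *Trp53inp1* 1.57 ± 0.497 CPM per kb, the last 2 within reach of each other's spread, and *Phlda3* had 0 counts. In double mutant villi *Ccng1* (23.6 ± 4.78) and *Sesn1* (21.5 ± 4.38) stood at the top within their spread. *Mdm4* (8.70 ± 1.40), *Mdm2* (8.59 ± 0.601) and *Trp53* (8.18 ± 0.824 CPM per kb) then lay at nearly the same level. *Zmat3* (2.09 ± 0.365) and *Trp53inp1* (1.70 ± 0.512) differed little from each other, and *Phlda3* had 0.550 ± 0.284 CPM per kb.

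A wider list of 86 p53 regulators, damage sensors and targets was also examined. Of these, 83 were in the table, and CPM values with ± are means and SD of 3 mice. Of the 73 that passed the filter, 26 rose (35.6%) and 7 fell (9.59%) in double mutant villi, against 19.7% and 17.0% of all tested genes, and their median log2 fold change was 0.40. Of the 26, 8 would not have passed the filter on the wild-type mice alone (among them *Chek1*, *Clspn*, *Gtse1*, *Siva1* and *Gdf15*), and *Psrc1* and *Gls2* had no wild-type library above its minimum. Such genes entered the test through their double mutant counts, so the share of higher genes is a description. With library size alone 37 were higher and 3 lower, where 3732 of all 13346 tested genes were higher and 1425 lower. Leaving out double mutant mouse 2 gave 15 higher and 4 lower, where 1812 of all 13699 tested genes were higher and 1630 lower. Leaving out wild-type mouse 2 gave 21 higher and 4 lower, where 2022 of all 13736 tested genes were higher and 1724 lower. By role, the p53 regulators had 4 higher and 2 lower genes among 15 tested. *Rpl5*, a ribosomal protein that can bind and block Mdm2, rose from 80.5 ± 7.53 to 259 ± 39.6 CPM (edgeR, 1.69 on the log2 scale, adjusted p 0.000136). Its partner *Rpl11* rose from 77.6 ± 15.7 to 189 ± 47.4 CPM, although reads of ribosomal protein genes can also match their many pseudogenes. *Ppm1d*, a phosphatase that switches off p53 signalling and is itself a p53 target, rose from 3.15 ± 0.229 to 6.67 ± 0.897 CPM (edgeR, 1.08 on the log2 scale, adjusted p 0.00553). *Sirt1*, a deacetylase that acts on p53, fell from 29.8 ± 2.82 to 20.4 ± 3.95 CPM (edgeR, -0.54 on the log2 scale, adjusted p 0.0308), and it was no longer called in 3 of the 6 leave-one-out fits or with library size alone (-0.35, adjusted p 0.124). *Cdkn2a*, whose Arf product inhibits Mdm2, had at most 5 counts in any mouse and was not tested.

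Among the 16 sensors and kinases of DNA damage, 9 were higher and 0 lower, where 19.7% and 17.0% of all tested genes were. The largest difference was that of *Clspn*, which carries the checkpoint signal from Atr to Chek1, with 0.500, 1.74 and 1.52 CPM in wild-type against 3.57, 3.43 and 3.23 CPM in double mutant mice (1.46 on the log2 scale). It needed its double mutant counts to pass the filter, so no p is given, and 4 of the 6 leave-one-out fits no longer called it. The kinases *Atm* and *Atr* also rose, by 1.15 and 1.29 on the log2 scale. *Chek1*, which entered the test as *Clspn* did, had a log2 value of 1.35, while *Chek2*, the effector kinase of Atm, had a log2 value of 0.81 that was not called (edgeR, adjusted p 0.0568). Several of these genes also act in normal replication, and the proliferation markers were higher in the same mice, whose part in these calls was not tested.

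The arrest targets split in direction, with 4 lower and 2 higher of 8 tested, where 17.0% of all tested genes were lower and 19.7% higher. *Cdkn1a*, the CDK inhibitor p21 and the best known arrest target, had 385, 310 and 309 CPM in wild-type against 85.0, 104 and 76.2 CPM in double mutant mice. The groups were far apart, and the edgeR log2 fold change was -1.92 ± 0.153 (adjusted p 0.000114), between -2.05 and -1.81 with each mouse left out. *Gadd45a* (log2 fold change -1.01), *Sfn* (-0.64) and *Btg2* (-0.55), which restrain the cell cycle, were also lower. The 2 higher genes were *Psrc1*, a spindle protein, with 0.00, 0.218 and 0.202 CPM in wild-type against 0.610, 1.58 and 0.949 CPM in double mutant mice (2.93 on the log2 scale), and *Gtse1*, a G2 and S phase protein, with a log2 fold change of 2.35. Both act in dividing cells. *Psrc1* had at most 4 counts in any wild-type mouse and passed the filter through the double mutant mice alone, so no p is given for it, and its call was lost without double mutant mouse 2 or 3. Without wild-type mouse 1, which had 0 counts of it, the log2 value of *Psrc1* was 2.29.

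Of 12 tested apoptosis targets, 2 were higher and 0 lower, beside 19.7% and 17.0% of all tested genes. *Bax*, a pore former of the mitochondrial membrane, had 20.6 ± 3.46 CPM in wild-type against 28.3 ± 5.11 CPM in double mutant mice (edgeR, 0.46 on the log2 scale, adjusted p 0.0770). It passed the threshold when scaled by library size alone (adjusted p = 0.0185), without wild-type mouse 1 (0.0342) and without double mutant mouse 1 (0.0336). *Bbc3*, encoding Puma, had 6.70 ± 1.40 against 4.76 ± 0.826 CPM (edgeR, -0.49 on the log2 scale, adjusted p 0.139). *Pmaip1*, encoding Noxa, had 65.7 ± 19.7 against 44.1 ± 12.3 CPM (edgeR, -0.58 on the log2 scale, adjusted p 0.138), and without wild-type mouse 1 its adjusted p was 0.0107, at a log2 fold change of -0.81. *Aen*, an exonuclease that cuts DNA in apoptosis, had 0.958, 1.80 and 1.62 CPM in wild-type against 8.12, 9.42 and 7.59 CPM in double mutant mice (edgeR, 2.53 on the log2 scale, adjusted p 0.000439), and *Siva1* was the other higher gene. *Eda2r*, a receptor that was picked out after its values were seen, had 0, 0 and 1 counts in wild-type and 18, 14 and 9 in double mutant mice, at least 4.37-fold higher, and like *Phlda3* was too low for the test.

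**Figure D4:**
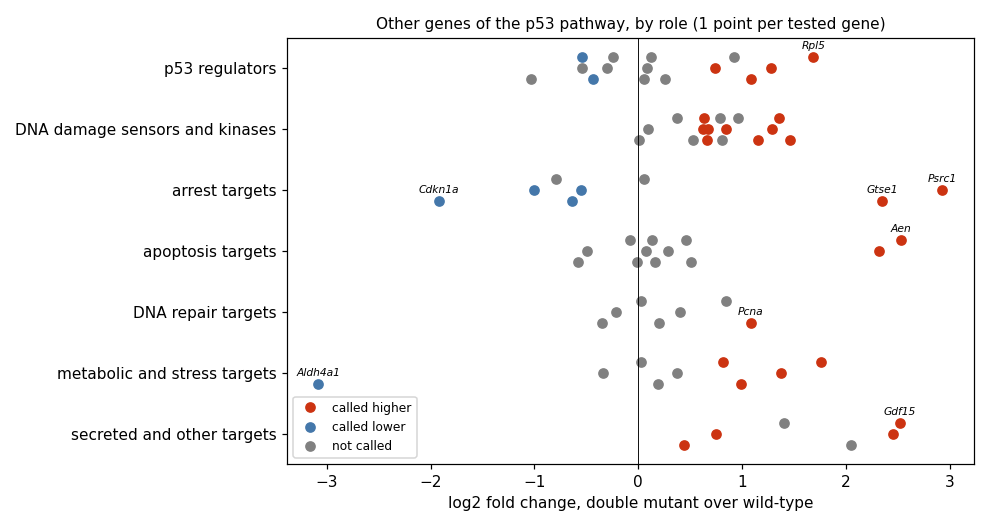
Log2 fold change, double mutant over wild-type, of the 73 tested genes of the wider p53 list, 1 point per gene, in 7 rows by role; the vertical offset within a row has no meaning. Red marks genes called higher, blue genes called lower and grey genes not called at an adjusted p of 0.05. The sensors and kinases lie at or above 0, with 9 of 16 called higher, and the arrest targets spread from *Cdkn1a* at -1.92 to *Psrc1* at 2.93.

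Of the 7 DNA repair targets, 1 was higher and 0 lower, and for this and the next groups the shares over all tested genes were again 19.7% higher and 17.0% lower. This was *Pcna*, the sliding clamp of replication, which rose from 44.2 ± 1.96 to 93.9 ± 6.40 CPM (edgeR, 1.09 on the log2 scale, adjusted p 0.000275). The metabolic and stress targets had 4 higher and 1 lower gene among 9 tested. *Gls2*, the glutaminase of p53-regulated glutamine use, had 0.272 ± 0.0194 against 0.937 ± 0.197 CPM (1.76 on the log2 scale). It too passed the filter through the double mutant mice alone, and its call was lost in 4 of the 6 fits with a mouse left out. *Aldh4a1*, an enzyme of proline breakdown, had 184, 303 and 238 CPM in wild-type against 25.3, 12.9 and 47.6 CPM in double mutant mice (edgeR, -3.08 on the log2 scale, adjusted p 0.00647), the largest fall of the list. Of the 6 secreted and other targets, 4 were higher and 0 lower. The stress hormone gene *Gdf15* went from 0.450 ± 0.323 to 2.57 ± 0.109 CPM (2.52 on the log2 scale). It passed the filter through the double mutant mice, with 1 wild-type library above the minimum, so no p is given. Without wild-type mouse 2 its log2 value was 3.21.

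Among 6 tested paralogs of the 8 genes, 1 was higher and 2 were lower, 3 calls where 36.8% of all tested genes were called. *Ccng2*, the second cyclin G, had 298, 335 and 331 CPM in wild-type against 53.4, 45.9 and 78.1 CPM in double mutant mice. It thus fell where *Ccng1* rose, with a log2 fold change in edgeR of -2.44 ± 0.196 (adjusted p 0.000122). *Phlda1* rose from 21.3 ± 7.79 to 41.4 ± 2.83 CPM (edgeR, 0.96 on the log2 scale, adjusted p 0.0194), and it was no longer called in 3 of the 6 leave-one-out fits. *Phlda2* had 0.478 ± 0.545 against 1.51 ± 0.498 CPM (1.71 on the log2 scale) and was not called. It passed the filter through the double mutant mice, with 1 wild-type library above the minimum. Without wild-type mouse 2, its highest wild-type mouse, the log2 value was 3.15, and with limma-voom it was 2.51. Both were past the threshold, but *Phlda2* entered these fits through its double mutant counts, so they are no support. *Trp53inp2*, an autophagy factor, fell from 177 ± 10.3 to 133 ± 12.6 CPM (edgeR, -0.41 on the log2 scale, adjusted p 0.0203), and it was no longer called in 4 of the 6 leave-one-out fits or with library size alone (-0.22, adjusted p 0.177). *Sesn2* (mean 11.1 against 11.3 CPM, adjusted p = 0.926) and *Sesn3* (4.15 ± 0.931 against 2.80 ± 0.881 CPM, adjusted p = 0.196) did not pass the threshold in edgeR's test. *Trp63* and *Trp73* could not be compared, since *Trp63* had at most 3 counts in any mouse and *Trp73*, though listed, was not found in the count table.

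Over the 6 mice, the genes whose log2 CPM followed that of *Trp53* most closely were *Plaa* (Pearson's r = 0.999), *Aldh18a1* (r = 0.998) and *Shq1* (r = 0.998). *Aldh18a1*, an enzyme of proline synthesis, went from 150 ± 15.7 to 306 ± 41.5 CPM. Those closest to *Mdm2* were *Lipe* (r = 1.00), *Pak6* (r = 0.999) and *Aqp7* (r = 0.999). *Lipe*, the hormone-sensitive lipase, went from 152 ± 19.1 to 58.6 ± 6.81 CPM. With 2 groups that differ widely, such values are common, and 12.7% of tested genes had r above 0.9 with *Trp53* and 12.7% with *Mdm2*.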

How the data were processed

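Per the paper's methods and the submitters' processing notes, the authors used HISAT2 for the alignment of poly(A)-enriched libraries to mm9 and featureCounts for the counting. The deposited values are raw counts per gene, 1 column per mouse, neither normalized nor pooled. The strand setting and the rule for reads matching several genes are not given in the sources used here. Symbols, positions and exon lengths came from GENCODE vM1 (mm9), which held 20032 of 20073 Ensembl identifiers.

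With R 4.3.3, edgeR 4.0.16 (filterByExpr, TMM, glmQLFit robust, glmQLFTest), 13346 genes were tested at a Benjamini-Hochberg adjusted p of 0.05. Standard errors are the log2 fold change over the square root of F. The scripts were first tested on simulated counts. DESeq2 1.42.0, limma 3.58.1 (voom), other scalings and filters, a replicate block, sex as a covariate and leaving out each mouse were the alternatives.

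The genes and lists were chosen with earlier results of these data known. Named from the wider lists were, per role, the called gene with the largest change in each direction, all tested paralogs, *Cdkn1a*, *Bax*, *Bbc3*, *Pmaip1* and *Cdkn2a*, and the 3 genes closest to *Trp53* and to *Mdm2*. *Rpl11*, *Ppm1d*, *Atm*, *Atr*, *Chek1*, *Chek2*, *Gadd45a*, *Sfn*, *Btg2*, *Gtse1*, *Siva1* and *Eda2r* were added after their values were seen.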

Additional observations from a re-analysis of the deposited data

How the results depend on the processing

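Under the 8 other tests, scalings, filters and covariates, the 7 tested genes kept the direction and the call reported, and so did *Trp53*, *Mdm2* and *Sesn1* with each mouse left out, while *Ccng1* lost its call once. The calls of higher genes among the 8 ran from 2 to 3. The third was *Phlda3*, which has 0 counts in every wild-type mouse and entered with the filter dropped or through its double mutant counts, so it is no support. Without wild-type mouse 3 it took the place of *Ccng1* in the count of 2. In the wider p53 list, the number of higher genes ran from 15 to 30 and that of lower genes from 4 to 8 with each mouse left out. There were 15 higher without double mutant mouse 2 and 4 lower without double mutant mouse 2 or wild-type mouse 2. Over all tested genes, the same fits gave 1812 to 2783 higher and 1630 to 2361 lower genes, with 1812 and 1630 without double mutant mouse 2. Lower genes were 3 with library size alone and 4 with the replicate block, against 7. Over all tested genes they were 1425 and 1750, against 2273, and the cause was not tested. The replicate numbers are not stated to pair the mice. Same-numbered mice had correlations of deviations from their group means of 0.02, -0.11 and 0.01, so the block is given here only. With it, 3834 genes were called in place of 4905, the log2 ratio of *Mdm2* to *Trp53* differed by -1.84, and no call among the 7 genes changed, while *Sirt1* and *Trp53inp2* lost theirs. Depth limits *Phlda3*, *Eda2r* and *Cdkn2a*.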
